A study of Mus musculus with 72 samples.

Results

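The 10 genes described here, Ttr, Folr1, Kl, Clic6, Aqp1, Enpp2, Otx2, Kcnj13, Slc4a5 and Prlr, are known for their expression in the choroid plexus. They were chosen by symbol, with earlier results of these data known. Each matched 1 Ensembl gene, and they are 10 of 55401 genes counted in 72 RNA-seq libraries of mouse hippocampus. The libraries came from the dorsal (DH) or ventral (VH) hippocampus of male mice labelled as the substrains C57BL/6J (6J) or C57BL/6NJ (6NJ). Mice stayed in the home cage (HomeCage), heard a cue alone (Cue) or received fear conditioning with shock and cue (Shock_Cue), and tissue of the latter conditions was taken 30 min afterwards. The 12 combinations of region, strain label and condition held 6 libraries each. No transgene or deletion made for the study is named, and the age of the mice is not given in the sources used here. A code such as 31A was shared by 1 DH and 1 VH library, which gave 36 codes. Nothing in the labels tells whether each library of a group is its own mouse, and the p-values below therefore reflect only the spread between libraries, part of which may be technical.

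The choroid plexus is a fringe of epithelium and stroma that hangs into the brain ventricles and secretes cerebrospinal fluid. In the lateral ventricle it is attached along the edge of the hippocampus. Its epithelium secretes transport proteins, moves ions and water with channels and cotransporters, and takes up vitamins and hormones from the blood. Several of its genes are silent or weak in neurons, while others, such as Enpp2 and Kl, are also expressed by cells of the hippocampus itself. In a bulk sample, more epithelial cells and more RNA per epithelial cell cannot be told apart, and the labels do not record whether choroid plexus was present in a dissected piece.

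Library totals were 30330382 to 56258370 counts, and mitochondrial genes took 5.599 to 9.445% of them. The hippocampal marker genes were present in every library: Prox1, a marker of dentate granule cells, lay between 45.6 and 163.6 CPM, and Neurod6 between 152.3 and 296.7 CPM. CPM is the read count relative to the library total, which was scaled by TMM, a normalization for composition. Nnt, whose gene carries a deletion in C57BL/6J, was higher in the libraries labelled 6J (34.3 to 44.1 CPM) than in those labelled 6NJ (18.4 to 22.9 CPM) for the gene model ENSMUSG00000025453, which goes against the labels. Gabra2 was likewise higher in the libraries labelled 6J. In DH it had 219.7 to 273.0 CPM under 6J and 91.2 to 123.3 CPM under 6NJ, and in VH 254.2 to 330.1 and 106.5 to 158.7 CPM. Differences between 6J and 6NJ below are therefore differences between labels. The counting of Folr1, Enpp2, Otx2 and Kcnj13 overlapped a gene on the other strand and that of Clic6, Otx2 and Prlr a gene on the same strand. The strand setting of the counting is not given in the sources used here, so reads of these overlapping genes cannot be told apart.

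Ttr (chr18:20665280-20674321, GRCm38, plus strand), which encodes transthyretin, the carrier of thyroxine and of retinol-binding protein in cerebrospinal fluid, varied widely between libraries of every group. In DH its lowest, median and highest levels were 14.5, 521.7 and 8268 CPM, and in VH they were 8.95, 30.1 and 2211 CPM. The lowest library, 40B VH, held 298 reads of Ttr and the highest, 32B DH, held 282461. The highest of the 72 libraries stood 923 times above the lowest, and the DH and VH ranges overlapped. In DH, 7 of 36 libraries lay above every VH library, and in VH, 7 of 36 lay below every DH library. The 10 genes together took 0.0206 to 1.2339% of a DH library and 0.0111 to 0.3024% of a VH library.

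The spread between libraries was also present within each group. In DH, the 6 libraries labelled 6J Cue had Ttr levels of 23.6, 26.7, 1038, 1392, 2030 and 8268 CPM. The 6 libraries labelled 6NJ HomeCage had 14.5, 27.0, 32.4, 70.0, 1677 and 2995 CPM. These were the DH groups with the highest and the lowest median, 1215 and 51.2 CPM, and their libraries overlapped. In VH, the highest median, 429.2 CPM, belonged to 6J Shock_Cue, with 11.9, 27.0, 29.5, 829, 1432 and 2211 CPM. The lowest VH median, 24.1 CPM, belonged to 6NJ Cue, with 8.95, 9.97, 20.1, 28.1, 42.8 and 1590 CPM. A single high library stood beside 5 low ones in VH 6J Cue and VH 6NJ Cue, while 3 of 6 libraries were high in VH 6J Shock_Cue and VH 6NJ HomeCage. In VH 6NJ Shock_Cue, too, 1 library was far above the rest, with 1632 CPM against 16.7 to 108.3 CPM.

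**Figure D1:**
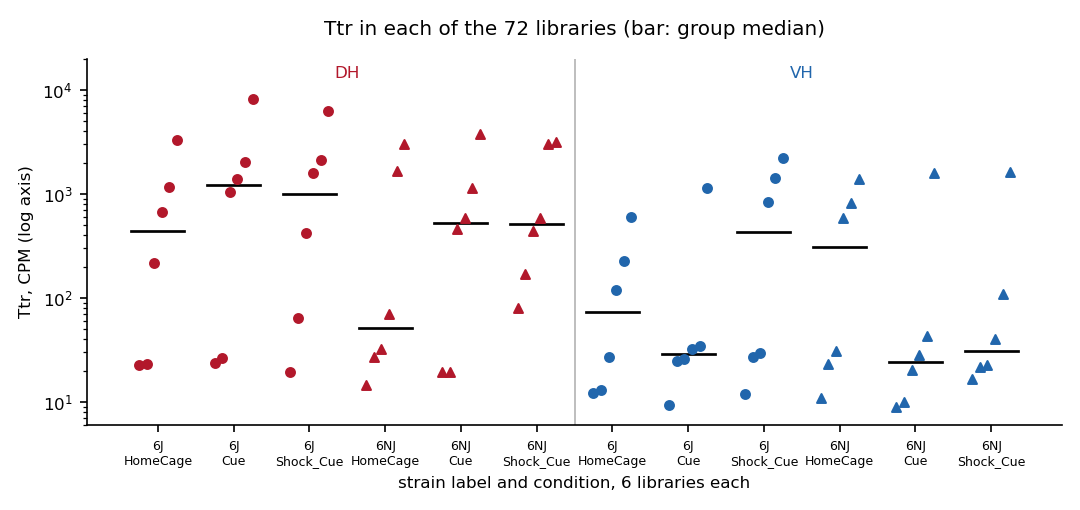
Ttr in CPM (log axis) in each of the 72 libraries by region, strain label and condition; points are libraries and bars are group medians. Libraries differ widely within each group of 6, and all libraries together run from 8.95 CPM in VH 6NJ Cue to 8268 CPM in DH 6J Cue.

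The other 9 genes followed the same libraries. Library 32B DH had the highest level of all 10 genes among the DH libraries and 31B DH the next highest of all 10. In 32B DH, Kcnj13 stood at 21.4 times, Slc4a5 at 19.5 times, Folr1 at 16.2 times and Ttr at 15.9 times the DH median, while Enpp2 stood at 9.81 times and Kl at 8.46 times. In VH, 31C VH had the highest level of 8 of the 10 genes, the exceptions being Aqp1 and Enpp2, which were highest in 38B VH at 9.97 and 696 CPM. All 10 genes lay above their regional medians in 16 DH libraries and below them in 17, and 3 DH libraries were mixed. In VH the corresponding numbers were 11, 6 and 19. The VH library of code 32B was not among the high ones: its Ttr level of 26.0 CPM ranked 23 of 36.

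Among the genes for secreted proteins and receptors, Enpp2 (chr15:54838901-54952892, GRCm38, minus strand), which encodes autotaxin, the enzyme that makes lysophosphatidic acid, had DH levels of 141.9, 329.0 and 3228 CPM (lowest, median, highest) and VH levels of 80.1, 137.8 and 696 CPM. Kl (chr5:150952607-150993817), the gene of Klotho, a co-receptor for fibroblast growth factor 23, had 17.7, 33.0 and 279.6 CPM in DH and 11.7, 17.2 and 64.3 CPM in VH. These genes kept a substantial level in the libraries with least Ttr. Prlr (chr15:10177238-10349180), the prolactin receptor, had 2.80, 8.25 and 120.01 CPM in DH and 3.18, 5.64 and 25.9 CPM in VH. Folr1 (chr7:101858331-101870788), the folate receptor that carries folate across this epithelium, had 0.326, 3.88 and 62.8 CPM in DH and 0.292, 0.808 and 14.3 CPM in VH. Prlr was the only member whose lowest library was a DH library, 36A DH.

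Among the genes for ion and water transport, Aqp1, Kcnj13 and Slc4a5 lay below 0.5 CPM in the lowest libraries of both regions. Aqp1 (chr6:55336432-55348555), a water channel, ranged over 0.343, 2.72 and 38.96 CPM in DH and 0.171, 0.566 and 9.97 CPM in VH. Clic6 (chr16:92485736-92541243), of the chloride intracellular channel family, ranged over 1.76, 10.02 and 148.6 CPM in DH and 0.670, 1.91 and 34.5 CPM in VH. Kcnj13 (chr1:87386363-87394729), the potassium channel Kir7.1 of the apical membrane, ranged over 0.194, 3.06 and 65.4 CPM in DH and 0.0342, 0.384 and 11.1 CPM in VH. Its lowest VH library held 1 read, and so did that of Slc4a5 (chr6:83219828-83304945), an electrogenic sodium bicarbonate cotransporter. Slc4a5 ranged over 0.116, 2.23 and 43.5 CPM in DH and 0.0266, 0.262 and 10.2 CPM in VH. None of the 10 genes was at 0 reads in any library, and values this low are limited by counting error. Per kilobase of gene length, the median over all 72 libraries was 79.5 CPM for Ttr, 38.3 for Enpp2 and 2.56 for Kl, and it was below 1 for the other 7 genes.

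Otx2 (chr14:48657677-48673819, minus strand), the homeobox transcription factor that the choroid plexus needs to form and to persist, had 0.670, 2.97 and 30.4 CPM in DH and 0.115, 0.722 and 8.94 CPM in VH. OTX2 recognizes a core of TAATCC, which reads GGATTA on the other strand. Since the members moved together, the RefSeq promoter windows of GRCm38.p6, from 250 bases before to 50 after a gene's start, were searched for this core on both strands. Windows were found for 6 members, and 1 of their 11 windows held the core, in Otx2 itself. Of 26 genes with a window among 30 other choroid plexus genes listed for comparison, 3 held it, namely Ace, Mfrp and Abca4. Counted by window, it was 3 of 31 windows (9.68%) of these other genes, and over all 32851 windows the share was 7.06%. The 4 stretches are shown 5′ to 3′ on the strand of their gene, with the core in capitals, so that the match can be read directly.
Otx2, chr14:48665300-48665335: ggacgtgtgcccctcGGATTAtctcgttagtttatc
Ace, chr11:105967906-105967941: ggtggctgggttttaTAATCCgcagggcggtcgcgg
Mfrp, chr9:44101621-44101656: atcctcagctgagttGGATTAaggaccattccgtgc
Abca4, chr3:122044387-122044422: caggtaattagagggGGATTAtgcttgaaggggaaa
The Otx2 window belongs to 1 of 4 starts listed for the gene, which lies inside the gene as given above, and the windows of the other 3 starts lacked the core. The core began 211 bases before that start, and 27, 134 and 58 bases before the start in Ace, Mfrp and Abca4. A match of 6 letters is a description of these windows and shows no binding.

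The relation with Ttr was measured across the 36 libraries of each region on log2 CPM with a prior count of 2. In DH, Spearman's rho of the 9 genes with Ttr ran from 0.905 (Prlr) to 0.971 (Slc4a5), and Pearson's r from 0.874 (Kl) to 0.987 (Slc4a5). In VH, rho ran from 0.752 (Kl) to 0.908 (Clic6) and r from 0.887 (Prlr) to 0.977 (Folr1). Each permutation p was 1e-05, the smallest that 100000 permutations can give, and after Benjamini-Hochberg adjustment over the 214 relations of all lists and both regions every p was 2.7e-05 for r and 3e-05 for rho. Without the 2 libraries farthest from the median of Ttr, r stayed between 0.864 and 0.989. The libraries share depth and tissue, so these values describe how the genes vary together.

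The relation was measured again on each side of the widest gap in Ttr, and in DH rho was higher above it. The DH part below the gap held fewer libraries, a narrower range of Ttr and low read counts for several genes. The part of this in the lower rho was not tested. The widest gap in DH lay between 80.2 and 168.4 CPM of Ttr, with 13 libraries below and 23 above, and it spanned 1.069 log2 units against 0.972 for the next gap. Above it, rho was 0.968 to 0.994 for the 9 genes (permutation, adjusted p = 9.5e-05). Below it, rho was -0.06 (Prlr) to 0.445 (Clic6), and 0 of 9 passed the adjusted permutation test by rho, with the smallest adjusted p at 0.34. By Pearson's r, 1 of 9 passed below it, Slc4a5, with r = 0.741 (permutation, adjusted p = 0.019). In VH the widest gap lay between 226.1 and 588.4 CPM, with 26 libraries below and 10 above. Below it, Folr1 (rho 0.755), Clic6 (0.759), Prlr (0.593) and Kcnj13 (0.532) passed, while by r 6 of 9 passed, without Prlr and with Aqp1, Enpp2 and Slc4a5. Above it, 8 of 9 passed, and Enpp2 did not (rho 0.745, permutation, adjusted p = 0.067).

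**Figure D2:**
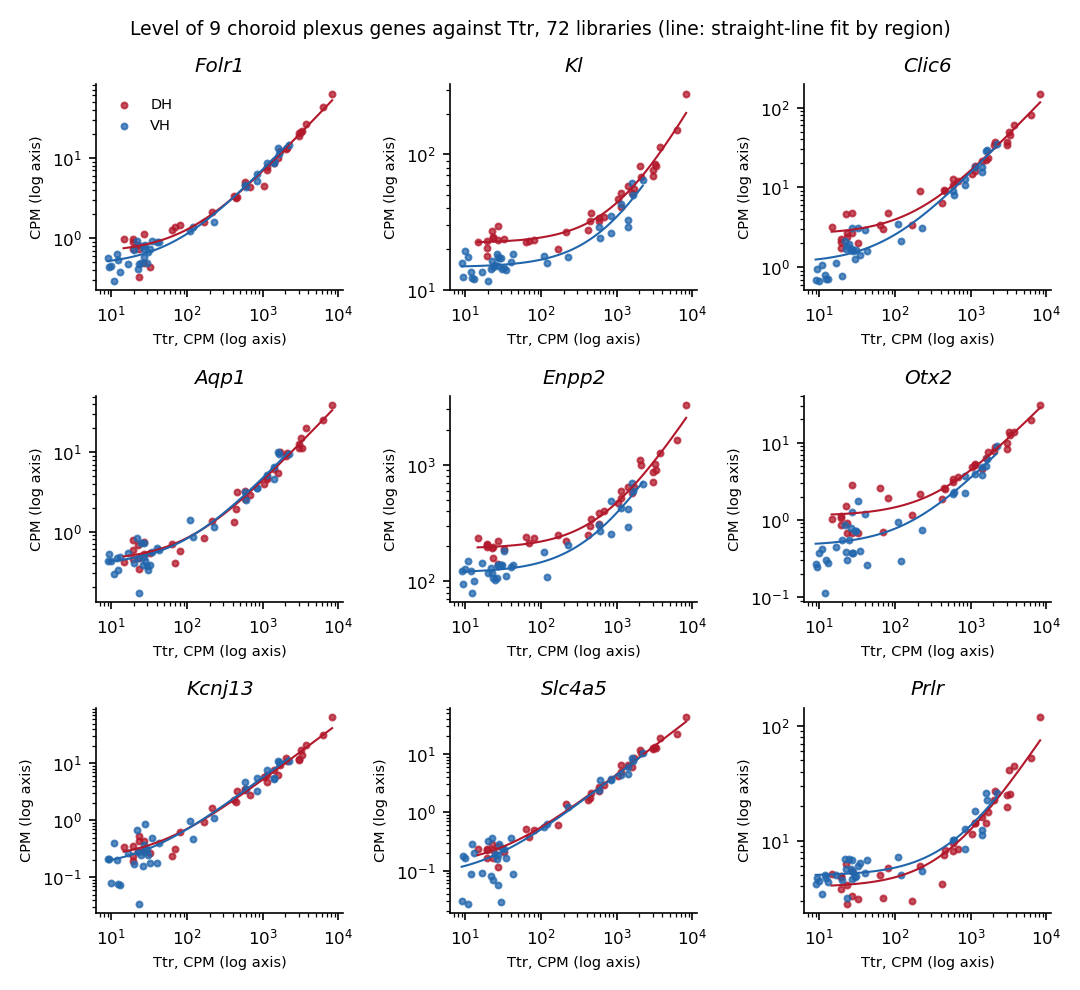
Level of each of the 9 other genes against Ttr, both in CPM on log axes; points are libraries, red for DH and blue for VH, and curves are straight lines fitted on the linear scale. The genes rise with Ttr in both regions, and Kl and Enpp2 level off near 22.2 and 191.4 CPM in DH and near 14.8 and 118.9 CPM in VH.

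On the linear scale, a straight line on Ttr, with libraries weighted by the inverse square of the fitted level, gave a slope per 1000 CPM of Ttr and a level at zero Ttr for each gene. The slopes of the 2 regions lay close together. For Enpp2 it was 281.8 CPM in DH and 267.8 in VH, a difference of 13.9 ± 28.1 (SE) with a 95% interval of -42.1 to 70.0. For Folr1 it was 6.23 and 6.73, a difference of -0.50 with an interval of -1.61 to 0.614, and for Slc4a5 it was 4.34 and 4.30, a difference of 0.0372 with an interval of -1.25 to 1.32. The interval of the DH minus VH difference included 0 for all 9 slopes, so a difference was not detected within these bounds. The level at zero Ttr differed beyond its interval for 6 of 9 genes. It was higher in DH for Enpp2 (191.4 against 118.9 CPM), Kl (22.2 against 14.8), Clic6 (2.58 against 1.12), Otx2 (1.13 against 0.465) and Folr1 (0.658 against 0.458), and higher in VH for Prlr (3.93 against 4.95 CPM). For Aqp1, Kcnj13 and Slc4a5 it was under 0.5 CPM in both regions, with intervals of the difference that included 0. The fit was added after the data were seen.

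Over all genes, 844 of 19646 (4.3%) were associated with log2 Ttr in DH and 197 of 19596 (1.01%) in VH (edgeR's quasi-likelihood test with the group means in the model, Benjamini-Hochberg adjusted p under 0.05). Without codes 31B and 32B, which held the highest DH libraries, the DH count was 483. Of the 197 genes in VH, 195 were also among those in DH. The association was positive for 804 in DH (4.09%) and 196 in VH (1%). All 9 members rose with Ttr in both regions. Slc4a5 rose by 0.90 ± 0.02 (SE) log2 units per log2 unit of Ttr in DH and by 0.87 ± 0.03 in VH, and Kcnj13 by 0.85 and 0.80. Kl rose least, by 0.29 ± 0.03 in DH and 0.23 ± 0.02 in VH, next to Enpp2 with 0.35 and 0.30. Of the 30 other choroid plexus epithelium genes, 30 rose in DH and 27 in VH, with median slopes of 0.41 and 0.29 against -0.0014 and -0.0009 over all genes. That list was chosen with earlier results of these data known, so its counts are no independent check of the members. The association with Ttr was also added after the data were seen, and it does not use group differences.

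Among those 30 genes, the 8 with the highest mean level that passed the region test were Pcp4l1, Slc29a4, Cab39l, Rdh5, Ace, Mfrp, Spint2 and 1500015O10Rik. Their slopes on Ttr in DH ran from 0.06 (Slc29a4) to 0.58 (1500015O10Rik), and 7 of the 8 lay below 0.4. In the linear fit, their level at zero Ttr was 13.8% (1500015O10Rik) to 88.3% (Rdh5) of the mean level in DH. In VH it was 22.6% (1500015O10Rik) to 95.7% (Pcp4l1), so much of the signal of several of these genes was present without Ttr. Ace, the angiotensin-converting enzyme, had slopes of 0.37 in DH and 0.21 in VH. Of genes outside the 10, those whose rank order was most like that of Ttr over 19269 genes tested in both regions were Kcne2, Wdr86, Krt18, F5, Prr32, 2900040C04Rik, Tmem72, Cldn2, Epn3, Slc16a8, Ace and Tmprss11a, by the smaller of the DH and VH Spearman rho over 36 libraries each. Kcne2, a subunit of potassium channels, came first with rho 0.977 in DH and 0.888 in VH, and ranged from 0.0523 to 46.1 CPM in DH. Cldn2, a claudin of the epithelial tight junction, had 0.953 and 0.847. Tmprss11a came last of the 12 with 0.941 and 0.809. Of these 12, 8 were on the list of other choroid plexus genes, and all 9 members were within the first 40 places. The list and the members were chosen with earlier results of these data known.

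Lists for other cell types were counted in the same way, beside 4.09% of all genes that rose in DH and 1% in VH. Of 10 genes of leptomeninges and stroma, 7 rose with Ttr in DH and 1 in VH. Igf2, a growth factor made by choroid plexus stroma and meninges, had a slope of 0.24 in DH, with adjusted p = 3.739e-07, and of 0.13 in VH, with adjusted p = 0.05143. Of 10 ependymal genes, 4 rose in DH and 2 in VH. Of 8 endothelial genes, 1 rose in DH, Slco1c1, and none in VH, where 2 had an unadjusted p under 0.05. For oligodendrocytes, thalamus and habenula, neocortex and hippocampal neurons, 0 genes passed in either region by edgeR or by DESeq2. At an unadjusted p under 0.05, oligodendrocytes and hippocampal neurons had 0 of 10 in both regions, thalamus and habenula had 3 of 7 in DH and 1 in VH, and neocortex had 2 of 8 in DH and 0 in VH. Of 5 blood genes, 0 passed in either region by edgeR, while 4 in DH and 0 in VH had an unadjusted p under 0.05. DESeq2 called 2 blood genes in DH and 0 in VH, and edgeR called 2 in DH without codes 31B and 32B. The part of stroma, ependyma or blood in the member results was not tested.

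The libraries of a code were compared to see whether a high DH library came with a high VH library. For Ttr over 36 codes, Pearson's r was 0.246 and Spearman's rho 0.293 (permutation, adjusted p = 0.35 and 0.28 over 108 relations), and r was 0.28 without the codes 40A and 42C, the farthest from the DH median. For the 10 genes, r was 0.188 (Enpp2) to 0.286 (Slc4a5), and none passed the adjusted permutation test, whose smallest adjusted p was 0.21 for rho of Prlr. Code 32B was the extreme case, with 8268 CPM of Ttr in DH and 26.0 CPM in VH. Code 42C went the other way, with 14.5 CPM in DH and 588.4 CPM in VH. Ttr was lower in VH than in DH for 27 of 36 codes.

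**Figure D3:**
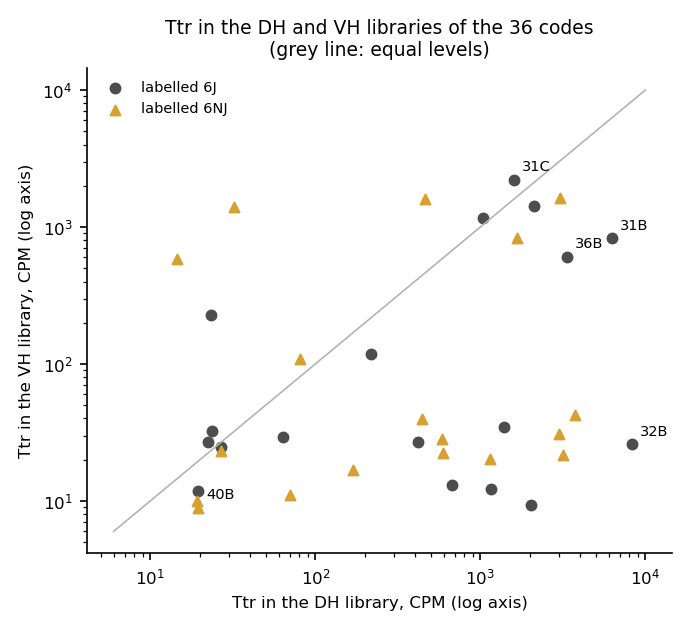
Ttr in the DH library (x axis) and the VH library (y axis) of each of the 36 codes, in CPM on log axes; circles are codes labelled 6J and triangles codes labelled 6NJ. Points lie on both sides of the line of equal levels, with 27 of 36 below it, and code 32B is high in DH and low in VH.

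All 10 genes were lower in VH than in DH. The fall was largest for Ttr, 1.92 ± 0.64 (SE) log2 units (adjusted p = 0.00699), and smallest for Prlr, 0.89 ± 0.29 (adjusted p = 0.00524), in edgeR's quasi-likelihood test over 12 groups of 6 libraries. Otx2 fell by 1.85 ± 0.37 (adjusted p = 1.5e-05), Slc4a5 by 1.83 ± 0.51 (adjusted p = 0.00147), Clic6 by 1.76 ± 0.42 (adjusted p = 0.00024) and Kcnj13 by 1.70 ± 0.50 (adjusted p = 0.00253). Folr1 fell by 1.69, Aqp1 by 1.58, Enpp2 by 1.35 and Kl by 1.18. The region difference was widespread: 12888 of 20255 genes (63.6%) passed, and 32.7% were lower in VH, so that passing the test was common among all genes. The median log2 difference was -1.7 for the 10 genes and -0.0044 over all genes. The model compares group means, which the high libraries dominate, and medians gave other sizes. The DH median of Ttr was 17.4 times the VH median, that of Kcnj13 was 7.97 times, and that of Prlr was 1.46 times. By medians the difference was thus larger than in the model for Ttr and Kcnj13, and smaller for Prlr. Codes 31B and 32B held the 2 highest DH libraries, and without them 9 of 10 genes stayed lower in VH, with Ttr at -1.50 (adjusted p = 0.0403) and Prlr at -0.54 (adjusted p = 0.0733). Prlr also missed the threshold in limma-voom with a random effect of code number, at -0.50 (adjusted p = 0.107), and stood at -0.56 (adjusted p = 0.0484) with the code as a block. A test of whether the region difference depended on the strain label passed for 0 of 10 genes (interaction, adjusted p = 0.997 for each, 0 at an unadjusted p under 0.05, 0 by DESeq2 and 0 by limma-voom), where 0.00494% of all genes passed. The interval for Ttr, -1.67 to 3.27 log2 units, was wide.

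With log2 Ttr as a covariate, the region difference remained for 4 of 9 genes. The covariate enters as a straight line in log2 units, although Kl and Enpp2 level off at low Ttr. All 9 genes had a level above 0 at zero Ttr in the linear fit. It was 1.13 CPM in DH and 0.465 in VH for Otx2, and 2.58 and 1.12 CPM for Clic6. What this departure from the log2 line adds to the differences was not tested. At equal Ttr, Otx2 was lower in VH by 0.75 ± 0.15 log2 units (adjusted p = 2.33e-05), Enpp2 by 0.54 ± 0.10 (adjusted p = 9.82e-06), Kl by 0.51 ± 0.10 (adjusted p = 1.46e-05) and Clic6 by 0.49 ± 0.12 (adjusted p = 0.00045), where 31.5% of all genes were lower in VH and 61.4% passed in either direction. The other 5 did not pass. Slc4a5 stood at -0.03 with a 95% interval of -0.23 to 0.18, Folr1 at -0.11 (-0.32 to 0.11), Aqp1 at 0.02 (-0.23 to 0.28), Kcnj13 at 0.05 (-0.19 to 0.29) and Prlr at 0.14 (-0.16 to 0.45). Ependymal genes also stayed lower in VH at equal Ttr, 8 of 10 against 9 of 10 without the covariate, and so did all 10 oligodendrocyte genes. Whether Enpp2 follows the oligodendrocytes, in which it is known to be expressed, was not tested. Of the 30 other choroid plexus genes, 27 were lower and 1 higher in VH without the covariate, and 8 lower and 5 higher with it. In the linear fit, the level at zero Ttr differed between regions beyond its interval for 18 of these 30, and the slope for 0.

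**Figure D4:**
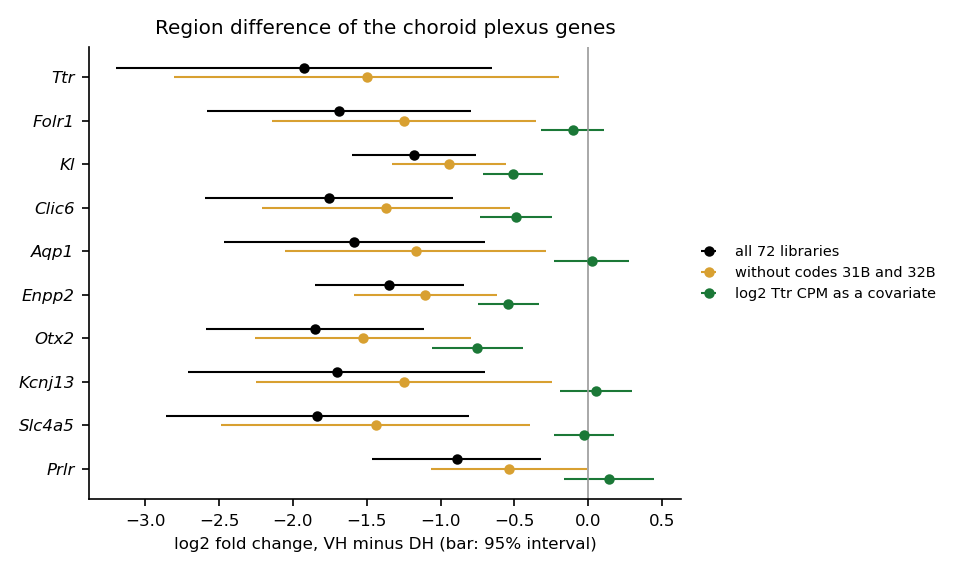
Log2 fold change of the 10 genes, VH minus DH, with 95% intervals: all 72 libraries, without codes 31B and 32B, and with log2 Ttr CPM as a covariate (not given for Ttr itself). All 10 intervals lie below 0 with all libraries, and with the covariate those of Kl, Clic6, Enpp2 and Otx2 do.

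No test of a member by strain label or condition passed. Over 20 contrasts within DH or VH (strain labels averaged over conditions or in HomeCage only, each pair of conditions within a label, and the interactions of label with response), 0 of 200 member tests passed, 2 had an unadjusted p under 0.05, and DESeq2 and limma-voom called 0. The smallest adjusted p was 0.185. Over all genes, 14.7% passed between labels in DH and 9.92% in VH, and in HomeCage alone 0.931% and 1.35%. Against HomeCage, Cue gave 5.89% (6J) and 2.36% (6NJ) in DH and 12.8% and 12.9% in VH, and Shock_Cue gave 1.76% and 3.57% in DH and 3.11% and 8.65% in VH. Shock_Cue against Cue and the interactions with label gave 0% of all genes by edgeR, while DESeq2 called 5 genes for Shock_Cue against Cue in DH 6J. These shares depended on the libraries and the fit: without codes 31B and 32B, Cue in VH 6J gave 6.87%, and with only the compared groups in the fit, Cue in VH 6NJ gave 4.78% and the labels in HomeCage in VH 0.315%. The estimates themselves were large, between -2.82 and 2.18 log2 units, with 47 of 200 at least 1 log2 unit from 0, and in 14 of 20 contrasts all 10 genes had the same sign. Because the genes move together from library to library, they give that sign as 1 observation and not as 10.

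The largest contrast between conditions was Shock_Cue against HomeCage in VH libraries labelled 6J. Otx2 stood at 2.18 ± 0.91 (SE) log2 units (unadjusted p = 0.0235, adjusted p = 0.185), Ttr 2.17 ± 1.61 (adjusted p = 0.474) and Enpp2 1.13 ± 0.54 (unadjusted p = 0.04675, adjusted p = 0.252). The 95% interval for Ttr ran from -1.12 to 5.46. Here 3.11% of all genes passed, and 4 of 10 ependymal genes were higher, against 1.84% of all genes. Without codes 31B and 32B it was 2 of 10 ependymal genes. The part of ependyma in the member values was not tested. In DH libraries labelled 6J, Cue minus HomeCage gave Kcnj13 1.87 ± 1.20 (adjusted p = 0.38) and Ttr 1.24 ± 1.49 (adjusted p = 0.678), where 5.89% of all genes passed. As the mean of conditions, 6NJ minus 6J gave Ttr -0.58 ± 0.85 in DH, with adjusted p = 0.698, and 0.21 ± 0.89 for the VH libraries, with adjusted p = 0.919, where 14.7 and 9.92% of all genes passed. Over the 20 contrasts, the median half-width of the 95% interval was 3.16 log2 units for Ttr and 1.18 for Kl, the widest and the narrowest of the 10 genes.

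With log2 Ttr as a covariate, intervals narrowed and a few VH contrasts reached the threshold. The covariate again enters as a straight line in log2 units. On the linear scale, the genes named here kept a VH level at zero Ttr: 4.95 CPM (Prlr), 1.12 (Clic6), 0.465 (Otx2) and 0.458 (Folr1). What this departure from the log2 line adds to the contrasts was not tested. In VH libraries labelled 6J, Cue against HomeCage gave higher Otx2 (1.06 ± 0.35, adjusted p = 0.0416), Clic6 (0.79 ± 0.23, adjusted p = 0.0232) and Prlr (0.53 ± 0.16, adjusted p = 0.0312), where 7.45% of all genes were higher and 12.3% passed in all. Only Clic6 passed without codes 31B and 32B, with Otx2 at 1.02 (adjusted p = 0.0893) and Prlr at 0.55 (adjusted p = 0.0533). In VH libraries labelled 6NJ, Cue against HomeCage gave higher Prlr (0.60 ± 0.17, adjusted p = 0.0197) and Folr1 (0.51 ± 0.17, adjusted p = 0.0461), where 5.67% of all genes were higher and 10.2% passed. Shock_Cue against HomeCage gave higher Prlr (0.57 ± 0.16, adjusted p = 0.0281), where 4.22% were higher and 8.04% passed. These comparisons share their HomeCage libraries within a label. Prlr levels in VH labelled 6NJ were 3.18, 6.65 and 12.4 CPM in HomeCage and 4.15, 4.93 and 25.8 CPM in Cue (lowest, median, highest), so the groups overlapped and the median was not higher after the cue. In DH, 0 of 9 genes passed in any of the 10 contrasts with the covariate, 2 tests had an unadjusted p under 0.05, and DESeq2 called 0. Over all genes, 15.2% passed there between labels and 0.916% in HomeCage alone, 6.09% (6J) and 2.41% (6NJ) for Cue, 1.61% and 2.94% for Shock_Cue, and 0% for Shock_Cue against Cue and the interactions. In the 7 other VH contrasts 0 of 9 genes passed and DESeq2 called 0. Of these, Shock_Cue against HomeCage in 6J came closest, with 5 of 9 genes at an unadjusted p under 0.05 and a smallest adjusted p of 0.0553, where 2.79% of all genes passed. The interaction of Cue with label had 2 genes at an unadjusted p under 0.05, and the others had 0. Between labels, 9.71% of all genes passed in VH, and 1.23% in HomeCage alone.

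The transcript table held 62 transcripts of the 10 genes, with estimated counts that share reads between isoforms. In the region comparison 25 were tested and 19 were lower in VH, from all 10 genes, where 26.9% of all transcripts passed. Enpp2 has 3 protein-coding transcripts of appreciable level: Enpp2-201, Enpp2-202, which adds a coding exon of 75 bases (25 codons), and Enpp2-204, which adds a coding exon of 156 bases (52 codons) and lacks 12 coding bases of Enpp2-201. The exon of 156 bases is also part of Enpp2-203, whose estimated level was 0 in every library. The insert of 75 bases is that of autotaxin γ, described from brain. The insert of 156 bases is known from autotaxin α. Enpp2-204 is not given that name here, because it also lacks 12 coding bases. The 2 exons are shown because they mark a transcript whose slope on Ttr passed the test and one whose slope did not. They come from GENCODE vM21 (GRCm38, minus strand), 5′ to 3′ in transcript direction, with the exon in capitals and 15 bases of the neighbouring exons on each side.
Enpp2-202 exon 20, chr15:54851348-54851422: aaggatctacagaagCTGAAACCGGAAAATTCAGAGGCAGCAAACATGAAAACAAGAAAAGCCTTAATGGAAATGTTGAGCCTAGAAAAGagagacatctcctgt
Enpp2-204 exon 12, chr15:54877776-54877931: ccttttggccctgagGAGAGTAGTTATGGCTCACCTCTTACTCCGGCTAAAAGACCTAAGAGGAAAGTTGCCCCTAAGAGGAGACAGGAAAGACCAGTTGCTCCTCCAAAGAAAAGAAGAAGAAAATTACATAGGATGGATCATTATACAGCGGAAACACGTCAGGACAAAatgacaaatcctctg

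Enpp2-201 rose with Ttr by 0.38 ± 0.03 log2 units per log2 unit (adjusted p = 8.74e-12) among the DH libraries and by 0.32 ± 0.02 (adjusted p = 4.97e-14) among the VH libraries. Enpp2-204 rose by 0.29 ± 0.05 (adjusted p = 0.000334) and 0.26 ± 0.05 (adjusted p = 0.00278). For Enpp2-202 the DH slope was 0.02 ± 0.03 (adjusted p = 0.915) and the VH slope -0.02 ± 0.03 (adjusted p = 1). Over all transcripts, 1.02% passed in DH and 0.215% in VH. The share of Enpp2-202 in the gene's estimated counts was 13.6% in 40B DH, which had 19.3 CPM of Ttr, and 1.39% in 31B DH, which had 6273 CPM. Its level was 27.2 and 21.9 CPM in these libraries, while Enpp2-201 stood at 159.8 and 1498 CPM. In 32B DH, which had the most Ttr, Enpp2-202 reached its highest level, 62.3 CPM, with a share of 2.025%, and Enpp2-201 stood at 2797 CPM. Enpp2-202 was nevertheless lower in VH, by 0.88 ± 0.12 log2 units (adjusted p = 1.98e-08), with medians of 20.05 CPM in DH and 12.01 CPM in VH. The difference in slope between the transcripts was not tested in a model of its own.

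**Figure D5:**
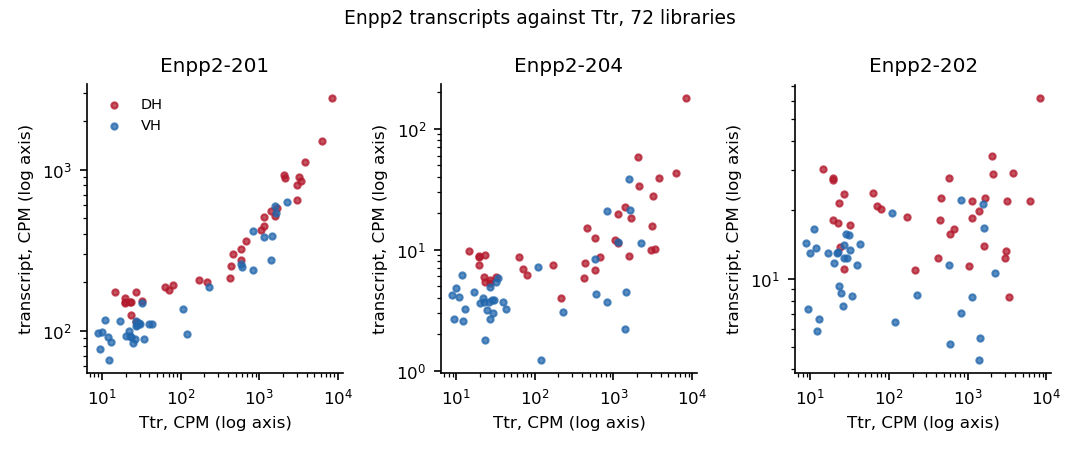
Estimated level of 3 Enpp2 transcripts (y axes, CPM) against Ttr (x axis, CPM), both on log axes; points are the 72 libraries, red for DH and blue for VH. Enpp2-201 and Enpp2-204 rise with Ttr, with slopes of 0.38 and 0.29 in DH, and Enpp2-202, with a DH slope of 0.02, is highest in 32B DH at 62.3 CPM.

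For Kl, the coding transcript Kl-201 rose with Ttr by 0.29 ± 0.03 (adjusted p = 1.11e-09) among DH and 0.23 ± 0.02 (adjusted p = 8.4e-11) among VH libraries, while the transcript with a retained intron, Kl-202, had slopes of 0.06 ± 0.03 (adjusted p = 0.409) and 0.003 ± 0.02 (adjusted p = 1). Kl-202 held 0.87 to 5.45% of the gene's estimated counts in DH. For Prlr, the main transcript Prlr-202 and the minor Prlr-205 had like slopes, 0.42 and 0.47 in DH and 0.28 and 0.28 in VH. Slc4a5-201 had 1.19 ± 0.10 in DH and 1.25 ± 0.11 in VH, and Slc4a5-202 had 0.59 ± 0.15 (adjusted p = 0.0328) and 0.51 ± 0.16 (adjusted p = 0.663). Leaving out Ttr's own transcript, 18 of 23 tested transcripts rose with Ttr in DH and 13 of 17 in VH, with at least 1 from each of the 9 other genes.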

How the data were processed

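The deposited gene table held counts of reads per gene, not normalized; HISAT2 and featureCounts are named, with the build GRCm38, per the submitters' processing notes. The deposited transcript table held estimated counts, and kallisto is named in those notes, as are FastQC and DESeq2. Versions, strand setting and filters: not given in the sources used here. Per the labels' protocols, stranded mRNA libraries were read as single ends of 75 bp.

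Groups came from the labels. No pair of libraries counted as a duplicate: the 180 pairs inside groups had a chi-square of 4.51 or more for each degree of freedom. Counts were tested with edgeR 4.0.16 (R 4.3.3): TMM, filterByExpr by group, estimateDisp, robust glmQLFit, the quasi-likelihood F-test and Benjamini-Hochberg adjustment over all genes tested, threshold 0.05. DH and VH were fitted separately (36 libraries each), and together for regions. Estimated counts were rounded first. Adjusted p-values of genes and transcripts are edgeR's, except where DESeq2 or limma-voom is given. A standard error is the log2 change divided by the square root of F. limma 3.58.1 and DESeq2 1.42.0 served for alternatives. The steps were tested on simulated counts with the same spread for every gene, for Cue against HomeCage in 6J. Changes of 1 log2 unit were recovered for 100% of changed genes in DH and 99% in VH, and 3.16 and 5.7% of calls were false. The members vary far more between libraries, so the simulation does not show how the test performs on them. Coordinates and exons came from GENCODE vM21.

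The members and lists were chosen with earlier results of these data known. Named genes were the 10 members, the 8 most abundant other choroid plexus genes past the region test, and the 12 genes most like Ttr. Other lists were given by counts. Models with Ttr as a predictor, straight lines, splits at gaps and leaving out codes 31B and 32B were added after the data were seen.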

Additional observations from a re-analysis of the deposited data

Results flagged for a closer look

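Within groups of 6 libraries, the gap from the highest or lowest library to its neighbour was set against the group's range on log2 CPM, with Dixon's critical value as the limit. Of 120 sets of 10 genes in 12 groups, 24 exceeded it, and in all 24 the highest library stood apart. Chance gives about 1 in 20 among independent sets. The 10 genes move together from library to library, so the 24 cannot be set against that share. The log2 scale was chosen after the linear scale had been tried on these data. On the linear CPM scale 65 sets exceeded the limit. The 24 belong to 4 VH libraries, and no DH set was among them.

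In VH 6NJ Cue, library 38B VH stood apart in 9 genes: Ttr 1590 CPM (others 8.95 to 42.8), Folr1 13.16, Kl 61.1, Clic6 28.4, Aqp1 9.97, Enpp2 696 (others 117.5 to 138), Otx2 5.05, Slc4a5 8.69 and Prlr 25.8 CPM (others 4.15 to 6.77). In VH 6J Cue, library 34C VH stood apart in 7 genes: Ttr 1154 CPM (others 9.32 to 34.5), Folr1 8.75, Kl 43.0, Aqp1 5.13, Kcnj13 7.67, Slc4a5 4.38 and Prlr 18.1 CPM. In VH 6NJ Shock_Cue, library 37A VH stood apart in 7 genes: Folr1 11.1 CPM, Kl 50.5, Clic6 29.1, Aqp1 9.50, Enpp2 597.7, Slc4a5 7.54 and Prlr 22.4 CPM. In VH 6J HomeCage, library 36B VH stood apart in Prlr alone, with 10.04 CPM against 4.36 to 5.42 in the others.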

How the results depend on the processing

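The count of members lower in VH was 10 with RLE size factors, without a low-count filter, with a mean CPM of at least 1 and with DESeq2, and 9 with limma-voom and without codes 31B and 32B. With the code as a replicate block it was 10. In the main region test the codes were not used as pairs, so all 72 libraries counted as separate. Deviations of the DH and VH library of a code correlated at -0.189 to 0.341 (median 0.095), 16 of 36 over 0.1. Of 36 DH libraries, 7 correlated best with their own code, each with 36 VH libraries to choose from. These values do not settle whether the libraries of a code are pairs. In every contrast of strain label or condition and in the region interaction the count stayed at 0 under each alternative run. The counts for the association with Ttr stayed at 9, also without the group terms. At equal Ttr, the count for Cue in VH 6J fell to 1 without codes 31B and 32B, and the cause was not tested. Of the 9 relations with Ttr, 0 passed by rho below the gap in DH, where Prlr had rho -0.06, and 4 passed by rho below it in VH, with fewer libraries and a narrower range. Over all genes, the association with Ttr in DH counted 844, and 483 without codes 31B and 32B. Without codes 31B and 32B, Cue fell from 1157 to 652 genes in DH 6J and from 2518 to 1358 in VH 6J (from 2401 to 1251 at equal Ttr), and Shock_Cue from 345 to 227 in DH 6J and from 610 to 345 in VH 6J. With only the groups compared, Cue counted 515 (DH 6J), 268 of 463 (DH 6NJ) and 893 of 2519 (VH 6NJ), Shock_Cue 217 (DH 6J), 355 (VH 6J) and 863 of 1696 (VH 6NJ), and labels in HomeCage 108 of 183 (DH) and 59 of 264 (VH). Without a filter, Cue counted 734 and 286 in DH and 1542 and 1484 in VH (6J, 6NJ), Shock_Cue 205 and 385 in DH and 360 and 1036 in VH, and labels in VH HomeCage 171. With DESeq2, labels in HomeCage counted 288 and 398, and Shock_Cue in VH 6J 950.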
